A study of Anas platyrhynchos with 5 samples.

Results

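miR-10 and miR-196, which other vertebrates encode beside HOX genes, were followed in duck feather bulbs, the growing base of the feather. The positions of the duck hairpins were not analysed here, so HOX-linked below refers to those families. They were taken as every mature line whose name begins with miR-10b- or miR-196-, which gave 6 of the 134 distinct mature names listed over all libraries. They come from 3 of 73 listed hairpins, mir-10b-1, mir-10b-2 and mir-196, each with a 5p and a 3p arm. Read counts stand for pools of bulbs, so fewer cells of a type and less miRNA per cell cannot be told apart.

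The data are 5 small RNA libraries from ducks (Anas platyrhynchos) of 12 months. The black group holds bulbs of the Cui Hei breed, with pure black plumage, and black bulbs of Kaiya-Liancheng F2 birds, the second generation of a cross of Kaiya with Liancheng ducks. The white group holds bulbs of the Kaiya and the Liancheng breeds, both with pure white plumage, and white bulbs of Kaiya-Liancheng F2 birds. Both F2 libraries are labelled as from ducks with white-black plumage, and the labels do not state whether the same birds gave both. Each library pools birds, with 3 bulbs per duck, and neither the number of birds nor the body region of the bulbs is given in the labels. Each library is 1 pool of a breed or of the cross, so p-values measure only the spread between these libraries. Among the pure breeds, colour and breed cannot be told apart.

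HOX genes give cells their position along the body axis. In vertebrates miR-10 genes lie near the HOX4 genes and miR-196 genes near the HOX9 and HOX10 genes, and these miRNAs are made in the body regions of the neighbouring HOX genes. miR-196 is known in mouse to direct cleavage of the Hoxb8 transcript, and miR-10b is known in human cells to repress HOXD10. A miRNA finds its targets mainly through its seed, bases 2 to 8.

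The mature sequences are shown as the deposited tables list them, 5′ to 3′ with the seed in capitals, because the 2 miR-10b hairpins are told apart by very little.
miR-10b-1-5p: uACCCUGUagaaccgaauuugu
miR-10b-2-5p: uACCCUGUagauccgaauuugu
miR-196-1,2,3-5p: uAGGUAGUuucauguuguuggga
miR-10b-1-3p: aCAGAUUCgauucuaggggaau
miR-10b-2-3p: cAAAUUCGuaucuaggggaau
miR-196-3p: uCGGCAACaagaaacugccuuaa
The 5p sequences of the miR-10b hairpins share 21 of 22 bases and the seed. They differ by A12U, counted from 1 at the 5′ end with miR-10b-1-5p first. This is the position at which miR-10a and miR-10b differ in mammals, and miR-10b-2-5p carries the miR-10a form. No other listed miRNA had the seed of any of the 6. The tolerated mismatches are not given in the sources used here, so reads with an error at base 12 could be counted for the other hairpin, which was not tested. The 3p sequences are less alike, with 18 aligned identical bases, 3 mismatches and 1 gap, and so give a second view of the hairpins.

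The hairpins are listed from the first base of the 5p arm to the last base of the 3p arm. They are shown with both arms in capitals, because the loops differ far more than the 5p arms do.
mir-10b-1: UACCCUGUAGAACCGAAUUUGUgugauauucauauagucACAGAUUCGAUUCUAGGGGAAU
mir-10b-2: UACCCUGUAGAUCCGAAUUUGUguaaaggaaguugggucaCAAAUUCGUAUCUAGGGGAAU
mir-196: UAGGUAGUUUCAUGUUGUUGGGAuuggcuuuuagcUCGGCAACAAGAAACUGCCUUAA
The loop has 17 bases in mir-10b-1, 18 in mir-10b-2 and 12 in mir-196. RNAfold predicted 17, 16 and 19 base pairs between the arms in the same order.

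Together the 6 miRNAs took 19.2% ± 4.79 (SD, n = 5) of the mature miRNA reads. Their share was 19.2% in Cui Hei, 15.9% in black F2, 27.4% in Kaiya, 16.2% in Liancheng and 17.2% in white F2 bulbs. Kaiya stood above the other 4 libraries, which lay close together. Mature miRNA reads per library ran from 1601329 in Liancheng to 4269854 in Kaiya bulbs, so a floor of 3 reads is 0.703 to 1.87 CPM (counts per 1000000 mature miRNA reads).

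miR-10b-1-5p was the most abundant miRNA of every library. Its share was 14.2% in Cui Hei, 14.0% in black F2, 17.5% in Kaiya, 13.6% in Liancheng and 13.9% in white F2 bulbs. The highest share was 1.29 times the lowest, so this miRNA was steady apart from Kaiya. Its SD on the log2 scale of TMM-normalised CPM (scaled for composition as well as library size, and used for every CPM below unless a share is named) was 0.19, which ranked 55 of the 90 miRNAs with at least 50 reads in every library.

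miR-10b-2-5p varied far more than its near twin. It took 4.51% of the reads in Cui Hei (95% Clopper-Pearson interval 4.49% to 4.53%) and 1.58% in black F2 (1.56% to 1.60%). In white bulbs it took 9.40% in Kaiya (9.37% to 9.42%), 2.05% in the Liancheng library (2.03% to 2.07%) and 3.08% in white F2 (3.06% to 3.11%). The highest share was 5.95 times the lowest. It ranked from 2 (Kaiya) to 17 (black F2) by abundance. Its SD on the log2 CPM scale, 1.04, ranked 3 of 90 and 1 among the 20 most abundant miRNAs. The intervals cover counting error only, since each comes from 1 library. The reads also carry no molecular identifiers, so copies of the same molecule could not be told apart.

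miR-196-1,2,3-5p took 0.522% of the reads in Cui Hei, 0.370% in black F2, 0.497% in Kaiya, 0.475% in Liancheng and 0.179% in white F2 bulbs. The 3 pure breeds lay close together and the white F2 library stood lowest, 2.91 times under Cui Hei. Its SD on the log2 CPM scale, 0.58, ranked 8 of 90, where the median over the 90 was 0.23.

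The 3p arms were rare. miR-10b-2-3p had 126 reads in Cui Hei, 49 in black F2, 236 in Kaiya, 29 in Liancheng and 70 in white F2 bulbs. miR-10b-1-3p had 64, 43, 76, 36 and 45 reads in the same order. As an unscaled share, miR-10b-1-3p stayed between 15.8 and 22.5 CPM, while miR-10b-2-3p ran from 18.1 CPM in Liancheng to 55.3 CPM in Kaiya. miR-196-3p had 1 to 3 reads per library, at or under the floor.

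By level the order was miR-10b-1-5p, miR-10b-2-5p and miR-196-1,2,3-5p in every library, with no overlap of the counting intervals. Below them miR-10b-2-3p was above miR-10b-1-3p in 4 of 5 libraries and below it in Liancheng, and the pair could not be separated by counting error in Liancheng and black F2. miR-196-3p was the lowest of the 6 in every library.

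**Figure D1:**
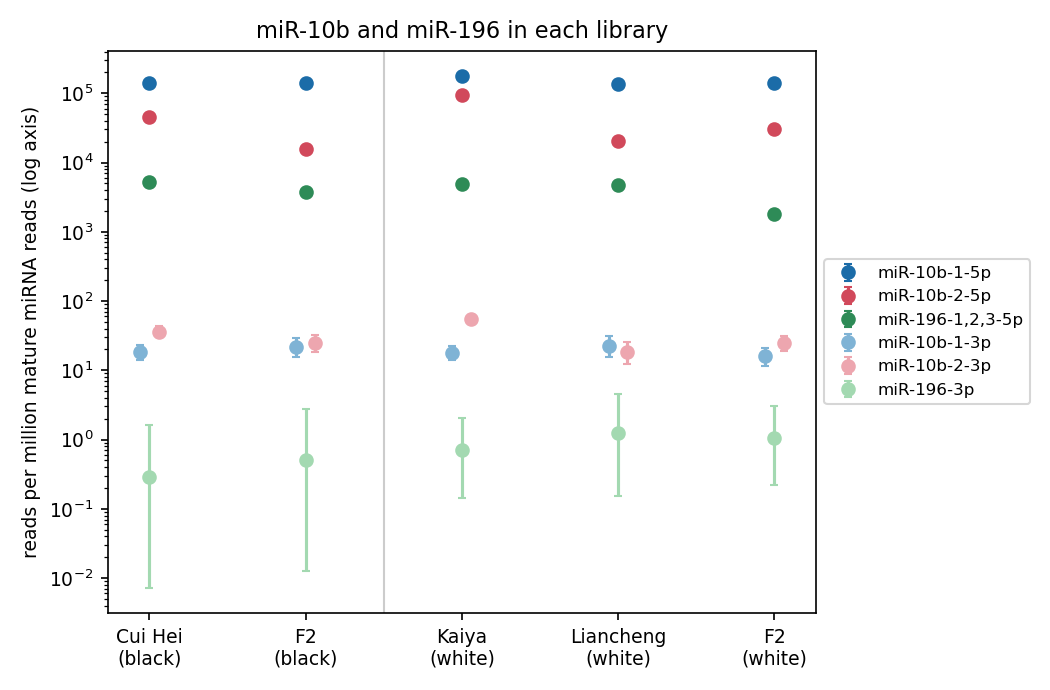
Share of all mature miRNA reads, in unscaled CPM (log axis), taken by each of the 6 miRNAs in each library, black libraries to the left of the line; points are single libraries and bars are exact 95% counting intervals. miR-10b-1-5p is nearly level, miR-10b-2-5p peaks in Kaiya (9.40% of reads), and miR-196-1,2,3-5p is lowest in white F2 bulbs (0.179%).

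The ratio of the 2 mir-10b hairpins needs no scaling between libraries. For each read of miR-10b-1-5p there were 0.318 reads of miR-10b-2-5p in Cui Hei, 0.113 in black F2, 0.536 in Kaiya, 0.150 in Liancheng and 0.222 in white F2 bulbs. miR-10b-2-5p thus made up 10.2% to 34.9% of the reads of both. The 3p arms gave nearly the same order. For each read of miR-10b-1-3p there were 1.97 reads of miR-10b-2-3p in Cui Hei (interval 1.45 to 2.70) and 1.14 in black F2 (0.741 to 1.76). Among the white bulbs there were 3.11 in Kaiya (2.39 to 4.08), 0.806 in the Liancheng library (0.476 to 1.35) and 1.56 in white F2 (1.05 to 2.32). Kaiya, Cui Hei and white F2 filled the top 3 places in the same order on both arms, while Liancheng and black F2 changed places. On the 3p arms the intervals of neighbouring places overlapped. The 5p and 3p arms of 1 hairpin come from the same libraries, so they are not independent replicates.

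**Figure D2:**
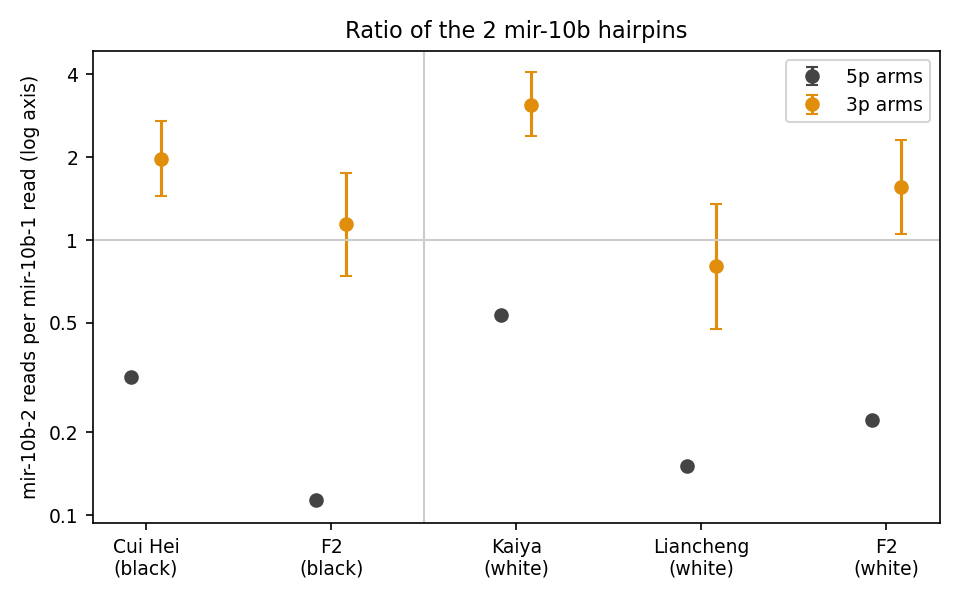
Reads of mir-10b-2 per read of mir-10b-1 (log axis) in each library, for the 5p arms and the 3p arms; bars are exact 95% counting intervals, which are smaller than the points for 5p. Kaiya is highest on both arms, at 0.536 and 3.11.

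The hairpin ratios of black and white bulbs overlapped. The mean log2 5p ratio of the black libraries was -2.40 ± 1.05 (SD, n = 2), that of the white libraries -1.94 ± 0.94 (SD, n = 3), and black minus white -0.46. An exact two-sided permutation test gave p = 0.8, where 2 against 3 libraries cannot go below 0.2. The difference was 0.06 without Kaiya, 0.28 without black F2, -0.86 without Liancheng and -1.21 without Cui Hei bulbs. The mean log2 3p ratio was 0.58 ± 0.56 in black and 0.65 ± 0.97 in white bulbs (exact permutation p = 1).

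The share of reads on the 3p arm differed between the mir-10b hairpins in all 5 libraries. Whether the different arm sequences are recovered equally well was not tested. The 3p arm made up 0.0803% of the mature mir-10b-2 reads in Cui Hei, 0.156% in black F2, 0.0588% in Kaiya, 0.0882% in Liancheng and 0.0797% in white F2 bulbs. In mir-10b-1 it made up 0.0130%, 0.0155%, 0.0102%, 0.0165% and 0.0114% in the same order. The intervals of the hairpins did not overlap in any library. The number of 3p reads per 5p read was 5.35 (Liancheng) to 10.1 (black F2) times higher in mir-10b-2, on average 6.71 times (log2 2.75 ± 0.36, SD, n = 5), higher in 5 of 5 libraries. The exact two-sided sign-flip permutation test gave p = 0.0625, the smallest that 5 libraries allow. In mir-196 the 3p arm was 10 of 59427 reads over all libraries.

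**Figure D3:**
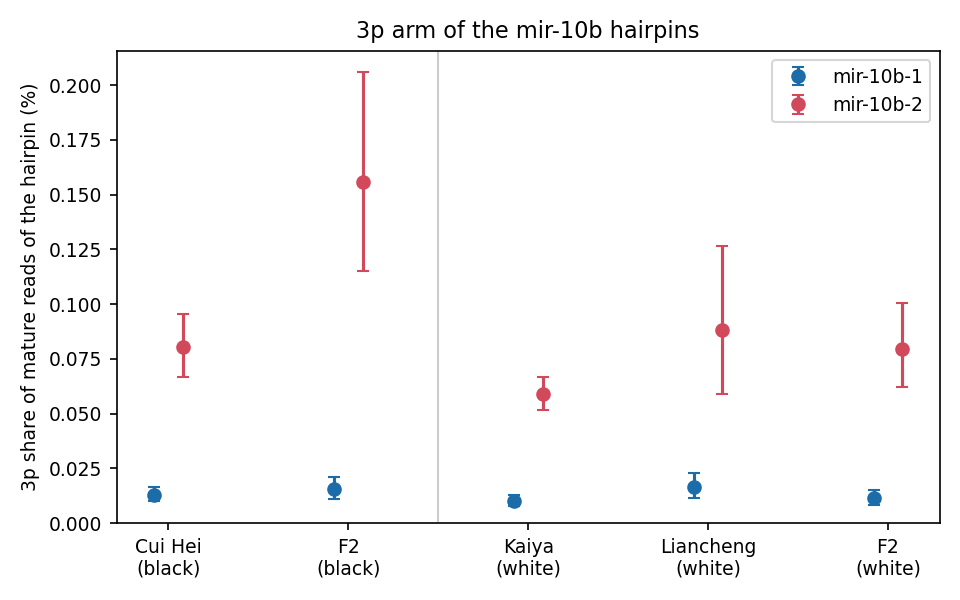
Share of mature hairpin reads that fell on the 3p arm, in percent, for mir-10b-1 and mir-10b-2 in each library; bars are exact 95% counting intervals. mir-10b-2 is above mir-10b-1 everywhere and highest in black F2 bulbs (0.156%).

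No change of the balance of the arms with colour passed the test. None of the 3 hairpins had 50 reads on each arm in every library, so none entered the main limma test, which called 0 of 26 hairpins (0%). With at least 10 reads limma called 0 of 38 (0%). Black minus white in the log2 of 5p over 3p reads was then -0.58 ± 0.34 (SE) for mir-10b-2 and -0.19 ± 0.27 for mir-10b-1, each with a limma adjusted p of 0.923. For mir-10b-2 it was -1.07 when Cui Hei was left out and -0.10 when black F2 was.

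None of the HOX-linked miRNAs passed the test between black and white bulbs. Of the 6, 5 passed the filter on low counts, 0 of which were called by edgeR's quasi-likelihood test at an adjusted p of 0.05, with 0 of them at an unadjusted p under 0.05 and 0 called by DESeq2 or limma-voom. Over all 114 miRNAs tested 1.75% were called. The mean of miR-10b-2-5p was 28625 ± 19078 CPM over the black libraries (SD, n = 2) and 50460 ± 41279 CPM over the white ones (SD, n = 3). Its log2 fold change of -0.82 ± 0.77 (SE) had an adjusted p of 0.971 by edgeR, and was 0.08 without Kaiya, -0.27 without the black F2 library and -1.76 without Cui Hei. The colours overlapped, since Kaiya was the highest library and Liancheng lay close to the lowest.

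The mean of miR-10b-1-5p was 133034 ± 991 CPM over the black libraries and 156117 ± 23721 CPM over the white ones. Its log2 fold change was -0.23 ± 0.18 (SE; edgeR adjusted p 0.971). Both black libraries lay below all white ones on this scale, as did 7.89% of the 114 miRNAs (14.9% in either direction), but they overlapped under each of the other 4 scalings. miR-196-1,2,3-5p averaged 4210 ± 938 CPM over the black and 3938 ± 1738 CPM over the white libraries, with a log2 fold change of 0.10 ± 0.43 (SE), or -0.02 with upper-quartile scaling. The change was -0.26 ± 0.52 for miR-10b-2-3p (0.34 without Kaiya) and -0.03 ± 0.24 for miR-10b-1-3p (0.10 with library size alone). The median of -0.23 over the 5 stands beside -0.03 over all miRNAs tested. miR-196-3p did not pass the filter.

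Within the F2 birds, where both colours come from 1 cross, miR-10b-2-5p and miR-196-1,2,3-5p lay in opposite directions. The black F2 library held less miR-10b-2-5p than the white F2 library, at a log2 ratio of -1.15 (counting interval -1.17 to -1.13). It held more miR-196-1,2,3-5p, at 0.87 (0.81 to 0.92). miR-10b-1-5p lay at -0.18, and at 0.00 with library size alone. The 3p arm miR-10b-2-3p, with 49 reads in black F2 and 70 in white F2, lay at -0.18 (-0.74 to 0.37). That interval holds 0 but not the ratio of miR-10b-2-5p, so the difference was seen on the 5p arm of mir-10b-2 only. There is 1 library on each side, so none of these ratios has a replicate check. Of 95 miRNAs with at least 50 reads in both, 4.21% reached a log2 ratio of 1 in either direction. Scaling set which side of that size they fell on, as the ratio of miR-10b-2-5p ran from -1.33 to -0.97 and that of miR-196-1,2,3-5p from 0.68 to 1.05 over the alternatives. An edgeR interaction term of colour with stock, which leaves 1 residual degree of freedom, gave an F2 minus pure-breed difference of 0.88 for miR-196-1,2,3-5p and -0.66 for miR-10b-2-5p (adjusted p 0.995 for each).

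Over all 10 pairs of libraries, miR-10b-2-5p reached a 2-fold difference in 7, miR-196-1,2,3-5p in 3 and miR-10b-1-5p in 0. miR-10b-2-3p had at least 50 reads on both sides in 3 pairs and reached it in 1, Kaiya over white F2 (log2 1.10, counting interval 0.71 to 1.51). miR-10b-1-3p had enough reads in 1 pair and reached it in 0, which makes 11 of 34 ratios in all (32.4%). Of all 944 ratios of miRNAs with at least 50 reads in both libraries, 5.83% reached this size. The pairs share libraries, so these counts are a description. Each value of miR-10b-2-5p below is a log2 ratio, followed by the percentage of miRNAs in the same pair that reached 1 in size. Kaiya stood above each of the other libraries, by 2.26 over Liancheng (10%), 2.69 over black F2 (5.32%) and 1.54 over white F2 (7.22%), while Cui Hei over Kaiya was -1.21 (3.96%). Cui Hei stood 1.05 over Liancheng (6.59%), 1.48 over black F2 (2.08%) and 0.33 over white F2 (7.14%). Liancheng over black F2 was 0.43 (4.4%) and Liancheng over white F2 -0.72 (7.69%). The ratio of Kaiya to black F2 was the largest of miR-10b-2-5p, with a counting interval of 2.67 to 2.70, and ranked 2 of 94 in size within its pair. Between the black libraries, Cui Hei and black F2, no other of the 96 miRNAs differed as much as miR-10b-2-5p. The 3p arm miR-10b-2-3p, with 49 reads in black F2, differed less from that library. Its log2 ratio over black F2 was 0.52 in Cui Hei (counting interval 0.03 to 1.03) and 1.28 in Kaiya (0.83 to 1.76). Over Liancheng, with 29 reads, it was 0.91 in Cui Hei (0.32 to 1.55) and 1.68 in Kaiya (1.12 to 2.29), intervals that hold the 5p ratios. For miR-196-1,2,3-5p the 3 ratios past 2-fold were those of each pure breed over white F2, at 1.32 for Cui Hei, 1.40 for Kaiya and 1.28 for Liancheng. The pure breeds among themselves differed in it by log2 ratios of 0.13 or less in size with TMM. Over the alternatives Kaiya over Liancheng ran from 0.06 to 0.32 and Cui Hei over Kaiya from -0.29 to 0.07.

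**Figure D4:**
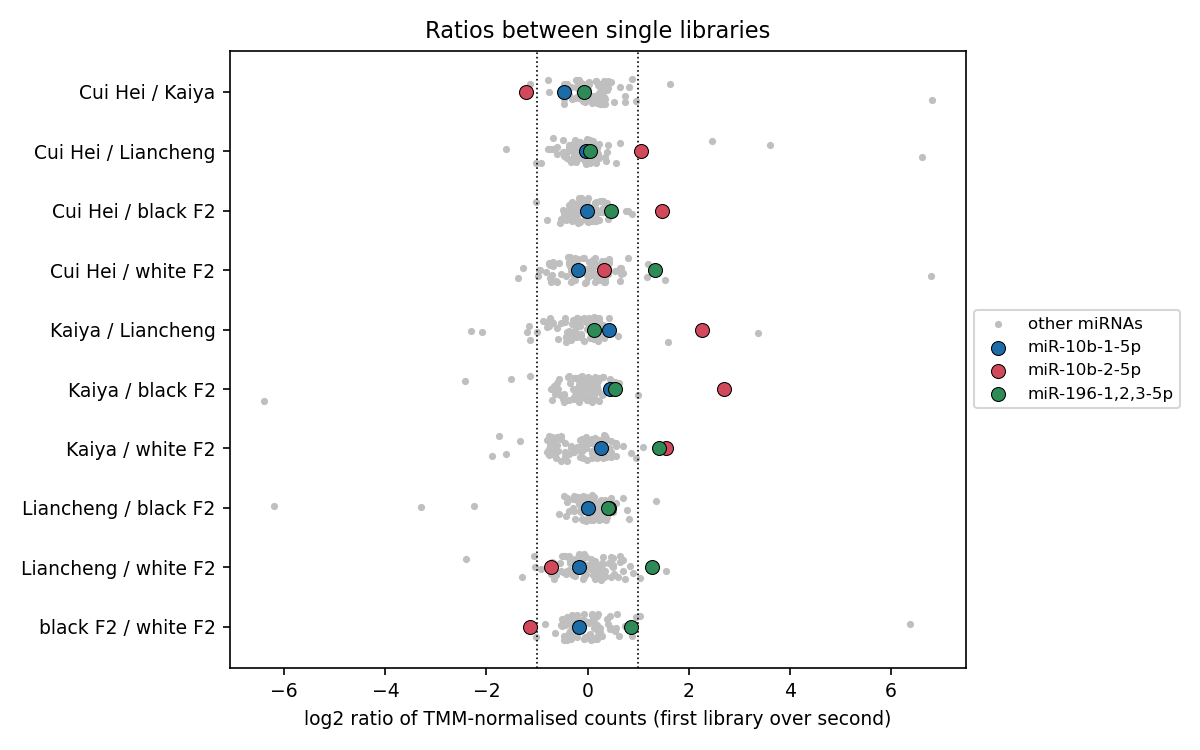
Log2 ratios of TMM-normalised counts between single libraries, first over second, for every miRNA with at least 50 reads in both (grey) and for the 5p arms of the HOX-linked hairpins (coloured); dotted lines mark a 2-fold difference. miR-10b-2-5p lies past a line in 7 of 10 pairs, miR-196-1,2,3-5p in 3 and miR-10b-1-5p in 0.

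Both breeds behind the F2 birds were sequenced, so the F2 libraries could be placed against them. miR-10b-2-5p stood at 97514 CPM in Kaiya and 20345 CPM in Liancheng. The white F2 library lay between them at 33520 CPM, as did 32.2% of 90 miRNAs with enough reads. The black F2 library lay below both at 15135 CPM, as did 30% of the 90. The 3p arm miR-10b-2-3p lay between the breeds in black F2, at 23.6 CPM against 18.0 in Liancheng and 57.4 in Kaiya. Counting error did not separate black F2 from Liancheng there (log2 of Liancheng over black F2 -0.39, counting interval -1.11 to 0.30). miR-196-1,2,3-5p stood at 5154 CPM in Kaiya and 4712 CPM in Liancheng, and both F2 libraries lay below, at 3546 CPM in black F2 and 1947 CPM in white F2 bulbs. Of the 90 miRNAs, 16.7% lay below both breeds in both F2 libraries. miR-10b-1-5p, at 181893 CPM in Kaiya and 135205 CPM in Liancheng, was at 151253 CPM in white F2 and 133735 CPM in black F2 bulbs. Its place against Liancheng depended on the scaling, as the log2 ratio of Liancheng over black F2 ran from -0.03 to 0.04 and that over white F2 from -0.37 to 0.00.

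Against all 3 pure breeds, the F2 libraries held less miR-196-1,2,3-5p, without passing the test. The mean was 2747 ± 1131 CPM over the F2 libraries (SD, n = 2) and 4913 ± 224 CPM over the pure breeds (SD, n = 3). The log2 fold change of -0.84 ± 0.28 (SE) had the smallest p of the 114 miRNAs (0.0283), with an adjusted p of 0.627 by edgeR. Both F2 libraries lay below all pure breeds under all 5 scalings, and 10.5% of the miRNAs tested lay lower in this way (28.9% in either direction). The change was -1.44 without the black F2 library (adjusted p 0.098) and -0.49 without the white F2 library (adjusted p 0.987). In these fits the lone F2 library is assumed to vary like the pure breeds, from which the spread comes. On leaving out a pure breed the adjusted p by edgeR ran from 0.465 to 0.892. In this comparison, which uses the same 5 libraries as the colour test, 0 of the 5 tested were called (0% of the 114), also by DESeq2 and limma-voom. At an unadjusted p under 0.05 there were 7 over all miRNAs and 1 among the HOX-linked ones. miR-10b-2-5p had -1.13 ± 0.75 (SE; -0.36 without Kaiya) and miR-10b-2-3p -0.55 ± 0.50. miR-10b-1-5p had -0.07 ± 0.18 and miR-10b-1-3p -0.02 ± 0.23, the last at 0.03 with upper-quartile scaling.

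The relatives miR-99 and miR-100, which lie outside the HOX clusters, and miR-615, which lies in the HOXC cluster of mammals, were also looked for. They were searched for by name only, and of these names the arms of mir-99a were listed. Whether the sequence listed as miR-99a-5p is the miR-99 or the miR-100 form was not checked, so the absence of miR-100 holds for the name alone. miR-99a-5p, which shares 19 aligned bases with miR-10b-2-5p but has another seed, was level over the libraries, from 9587 CPM in Liancheng to 10440 CPM in Cui Hei. Its log2 fold change was 0.05 ± 0.13 (SE) between colours (adjusted p 0.971 by edgeR) and -0.01 ± 0.11 between F2 and pure breeds (0.967). miR-99a-3p had 0.08 ± 0.26 and 0.38 ± 0.18. Neither was called.

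The pattern of each 5p arm over the 5 libraries was set beside that of 87 other miRNAs, as the root mean square difference of centred log2 CPM. miR-10b-1-5p was most like the epithelial miR-205b-5p (0.08), miR-449c-1-5p (0.10) and miR-128-5p (0.11). The median over the 87 was 0.28, and a flat line was nearer than that (0.17), since miR-10b-1-5p itself is nearly level. miR-196-1,2,3-5p was most like miR-214-5p (0.25, with a median of 0.59 and a flat line at 0.52), from a hairpin known in mesenchyme. miR-214-5p was also lowest in white F2 bulbs, 0.55 below its mean on the log2 scale against 0.97 for miR-196-1,2,3-5p. The other arm, miR-214-3p, dropped less there. Its log2 ratio over white F2 was 0.40 in Cui Hei, 0.09 in Kaiya, 0.50 in Liancheng and 0.14 in black F2. A miRNA without a family number (0.32) and miR-106-2,3-5p (0.37) followed. miR-10b-2-5p had no close match. Its nearest, miR-215-5p (0.76), miR-449c-1-5p (0.77) and miR-31-3p (0.79), were little nearer than a flat line (0.93) or the median (0.98).

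Epithelial marker miRNAs were abundant throughout. Of 6 epithelial families 4 were listed, and their 8 mature miRNAs summed to 103229 to 116086 CPM (black) and 106836 to 128002 CPM (white), the highest in Kaiya. The epithelial miRNAs with at least 50 reads differed in direction between Kaiya and Liancheng. The log2 ratio of Kaiya over Liancheng was 0.27 for miR-205b-5p and 0.31 for each miR-31 arm. It was -0.43 for miR-200a-3p, -0.33 for miR-200a-5p, -0.88 for miR-205b-3p and -0.27 for miR-429-3p. Of 5 mesenchymal families 2 were listed (miR-214 and miR-22), and their 4 mature miRNAs summed to 66519 to 68495 CPM (black) and 56044 to 76832 CPM (white). Kaiya, lowest in the mesenchymal sum, was highest in CPM of both miR-10b-2-5p and miR-196-1,2,3-5p (5154 CPM). White F2, lowest in miR-196-1,2,3-5p, was second lowest in the sum at 62049 CPM. The mesenchymal miRNAs differed in direction, as the log2 ratio of Kaiya over white F2 was 0.09 for miR-214-3p, 0.70 for miR-214-5p and -0.15 for miR-22-3p. The melanocyte-linked miR-204 arms, 1 of 2 families, ran from 8813 to 11723 CPM in black but only from 104 to 121 CPM in white bulbs, with no overlap. The miR-144 arms, 1 of 2 erythroid families, ran from 391 to 455 CPM (black) and from 79.9 to 277 CPM (white). The miR-126 arms (endothelial) ran from 13612 to 17030 CPM (black) and from 11370 to 17141 CPM (white), the miR-499 arms (1 of 4 muscle families) at 41.9 to 59.3 and 21.9 to 79.1 CPM, and the miR-9 arms (1 of 2 neural families) at 418 to 522 and 498 to 664 CPM. Of 4 leukocyte families 0 had a line. The part of cell composition in the levels of miR-10b and miR-196 was not tested.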

How the data were processed

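Raw read counts per mature miRNA and per hairpin were used as deposited. Per the series' design text the authors used miRDeep2 2.1.2, with Bowtie 0.12.2 and FastQC named in the submitters' processing notes. No source used here gives the genome build, and no position was used. The authors' CPM equal the count over the table's summed lines to within 0.005. Every hairpin total equals mature plus remaining reads. A mature name on several lines was taken once, with its highest count.

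Black (n = 2) was compared with white (n = 3), and F2 (n = 2) with pure breeds (n = 3), by edgeR 4.0.16 in R 4.3.3 (TMM, filterByExpr, quasi-likelihood test, Benjamini-Hochberg adjustment over all 114 miRNAs, threshold 0.05). The common dispersion was 0.0756 for colour and 0.151 for F2 against pure breeds. Each SE of an edgeR fit is the size of the log2 fold change divided by the square root of its F. Each SE of the arm test is the limma difference divided by its t. Arms were compared with limma 3.58.1 on log2 ratios with a pseudocount of 0.5. Single libraries were compared as ratios with Clopper-Pearson intervals. Hairpins were folded with RNAfold 2.7.2. The scripts were tested on simulated data. Alternatives were other scalings, read filters, DESeq2 1.42.0, limma-voom, summed lines, blocks and leaving out each library.

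Named are the 6 miRNAs, the 3 of most similar pattern for each with at least 50 reads in every library, listed relatives, and the marker families of the cell types looked for. Members, lists and rules were chosen with earlier results of these data known.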

Additional observations from a re-analysis of the deposited data

Results flagged for a closer look

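Reads counted on the mir-10b-2 hairpin but for neither of its mature sequences enter no main comparison above. There were 19 over the 5 libraries, with 6 in Cui Hei, 6 in Kaiya, 5 in white F2, 2 in black F2 and 0 in Liancheng bulbs, so 3 libraries lay above a floor of 3 reads. They are 0.00267% of the 710533 hairpin reads. On mir-10b-1, with 2133163 reads, there was 1 such read, and on mir-196 there were 0 of 59427. The other listed hairpins were not compared.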

How the results depend on the processing

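No HOX-linked miRNA was called in either comparison under any of the alternatives run. In the arm test the mir-10b hairpins entered only with at least 10 reads per arm, and were not called there. The hairpin mir-196 never entered, so the other arm settings could not call any HOX-linked hairpin. The count of ratios past 2-fold between single libraries was 11 and ranged from 10 to 13. The mean summed share was 16.8% with lines summed and 20.1% without miRNAs that have no family number. The number of HOX-linked miRNAs below both parental breeds in both F2 libraries rose from 1 to 2 with scaling from the table without the members, where miR-10b-1-5p joined. With TMM 16.7% of 90 miRNAs lay there, and the share of all miRNAs under the other scaling is not given here. All 7 alternatives for this count of HOX-linked miRNAs, and the arm test with 10 reads without each library, were chosen after seeing the data. The log2 difference in the ratio of miR-10b-2-5p to miR-10b-1-5p ranged from -1.21 to 0.28 on leaving out a library, turning positive without Kaiya (0.06) or black F2 (0.28).

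Uncalled changes also turned sign. Between colours these were miR-196-1,2,3-5p with upper-quartile scaling (-0.024), and miR-10b-1-3p with library size alone (0.10) and with scaling from the table without the members (0.030). On leaving out a library the colour change ranged from -0.24 to 0.33 for miR-196-1,2,3-5p, from -0.16 to 0.12 for miR-10b-1-3p, from -0.55 to 0.34 for miR-10b-2-3p and from -1.76 to 0.079 for miR-10b-2-5p. Between F2 and pure breeds miR-10b-1-3p turned with upper-quartile scaling (0.029) and limma-voom (0.0043). On leaving out a library it ranged from -0.27 to 0.088, and miR-10b-1-5p from -0.24 to 0.085. The cause was not tested. No paired analysis was possible because the labels give no replicate numbers that link libraries; with stock or colour as a block 0 were called. The median colour change over all miRNAs was -0.16 with upper-quartile scaling and 0.10 with library size alone. Depth limits the 3p arms, which had 1 to 236 reads per library.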
